A study of Homo sapiens with 7 samples.

Results

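LSM1 to LSM8 and SART3, 9 of the 16044 genes listed in at least 1 of the 3 deposited tables, encode proteins that meet U6 snRNA or share a ring with those that do. They were chosen by gene symbol, and their PASs (poly(A) sites) on the gene's own strand were used. All 9 genes were listed in all 3 tables, LSM8 under its older symbol NAA38 on chromosome 7. No PAS of these genes was also listed for another gene. The libraries came from HEK293, a cell line grown from human embryonic kidney, transfected with siRNAs. siCtrl cells received a control siRNA, siStarPAP cells one against Star-PAP (gene TUT1), siPAPa cells one against PAPα (PAPOLA), siPAPg cells one against PAPγ (PAPOLG), and siPAPag cells siRNAs against PAPα and PAPγ. siCtrl, siStarPAP, siPAPa and siPAPg stood in the first table, siPAPag stood beside the same siCtrl library in another, and a second siCtrl and siStarPAP (batch 2) were made with the 3′READS+ protocol in place of 3′READS, both of which sequence the 3′ ends of poly(A) RNA. Each condition had 1 library per batch, and the labels give no batch for siPAPag.

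Lsm proteins assemble into rings that hold the 3′ end of short RNAs. LSM2 to LSM7 are common to a nuclear ring, which LSM8 completes and which binds the uridine tail of U6 snRNA, and to a cytoplasmic ring, which LSM1 completes and which acts in mRNA decapping and decay. Star-PAP is a nuclear poly(A) polymerase and also the terminal uridylyltransferase of U6, so it adds uridines to the tail that the nuclear ring binds. SART3 binds U6 and helps it pair again with U4 after splicing. The reads here measured mRNAs with poly(A) tails, so levels of U6 itself were not analysed here.

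The tables held between 2347192 and 16191098 reads per library on the genes' strand, fewest in batch 2. Levels are in RPM, reads scaled to the library's total of PASS reads (reads with untemplated Ts, which mark a PAS). Their 95% Poisson intervals cover counting error only. TUT1 had 83 reads in siCtrl and 2 in siStarPAP, but 6 and 4 in batch 2, where the KD (knockdown) could not be seen at this depth. PAPOLA had 71 reads in siCtrl, 12 in siPAPa and 8 in siPAPag, but also 44 in siStarPAP, 42.8% of siCtrl by RPM. That is a log2 ratio of −1.22, beside a median of −0.45 over all genes tested in that pair. In batch 2 PAPOLA had 45 reads in siCtrl and 34 in siStarPAP, 89.8% by RPM, with overlapping intervals. By immunoblot, the paper reports no apparent change of the other PAPs in each KD. PAPOLG had 5 reads in siCtrl, 15 in the library labelled siPAPg and 6 in that labelled siPAPag, so that its reads did not show the KD of PAPγ in either. Of 5 markers of the line, KRT18 (783 to 3927 RPM), VIM (42.8 to 151.6 RPM) and NEFL (9.85 to 41.6 RPM) were the highest, and KRT8 and NEFM reached at most 3.24 and 11.8 RPM. Of markers of other cells, PTPRC, CD3E, ALB and HBB were not listed in any table, COL1A1 had at most 12 reads, and EPCAM was at 6.73 to 13.1 RPM in all libraries. In such bulk libraries, fewer cells and less RNA per cell cannot be told apart.

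The 3′ ends at which these mRNAs were read are shown first, since every level below is a count of reads at them. Each line gives the 30 bases that end at the listed PAS, on the gene's strand (GRCh37, the build named hg19 in the processing notes), with the poly(A) signal in capitals, in the copy nearest the PAS. They are the most used PASs of the genes, with some of the further PASs named in the account of PAS use. No sequence is given for LSM1.
LSM2, chr6:31765173-31765202, minus strand: ccgcatcgggAATAAAatttatgatgcaaa
LSM3, chr3:14239809-14239838, plus strand: ctcaagctctccAATAAAtatgaccaccaa
LSM4 upstream, chr19:18417719-18417748, minus strand: aaataaaaacaAATAAAactacacactgca
LSM4 downstream, chr19:18417046-18417075, minus strand: attggAATAAAaggtcccgtccgtgaggaa
LSM5, chr7:32526647-32526676, minus strand: gcagatgaaAATAAAggtgtttttggttaa
LSM5 far downstream, chr7:32524950-32524979, minus strand: ctttgctttgattatacttttctttgggca
LSM6, chr4:147111169-147111198, plus strand: tggacatataATTAAAacattttggaggaa
LSM7, chr19:2321520-2321549, minus strand: ttgttttcttAATAAAattgcaaacctcaa
LSM8 most used, chr7:117834371-117834400, plus strand: attttcATTAAAgttatttggaaagggcaa
LSM8 far downstream, chr7:117844064-117844093, plus strand: aaaAATAAAttattttacagaggctactaa
SART3 upstream, chr12:108916462-108916491, minus strand: agctttATTAAActgacgttctcttcaaaa
SART3 downstream, chr12:108916354-108916383, minus strand: gatgtgtaAATAGAacttttgtaagtcaaa

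All of these PASs lay in the last exon of the gene by the tables, and GENCODE placed them in a UTR exon, except the far LSM8 PAS, which was 4 nt past the annotated end. Of the most used PASs of the 9 genes, 6 had AATAAA and 3 (LSM6, LSM8 and SART3) had ATTAAA, starting 18 to 25 nt before the PAS. In the 40 nt before all 37666 last-exon PASs of the first table, AATAAA was found in 46.3%, and ATTAAA without it in 15.8%. ATA, the DNA form of the AUA element tied to Star-PAP binding, occurred on the gene's strand from −100 to −41 nt of 6 of the 9 most used PASs, and of 59.5% of all last-exon PASs. AATAAA also holds these letters, but the window ends before the 40 nt searched for it. No poly(A) signal was found before the far LSM5 PAS among AATAAA and ATTAAA or the other forms searched, AGTAAA or TATAAA or CATAAA or GATAAA or AATATA or AATACA or AATAGA or AAGAAA or AATGAA or ACTAAA. None of these forms was found either before the first LSM8 PAS or before that 86 nt past it, which are not shown here. In all, 5 of the 33 last-exon PASs of the 9 genes had none. SART3 ended on the minus strand inside FICD, a gene of the plus strand, and the strand of each PAS keeps their reads apart. GENCODE named 4 pseudogenes of LSM3, 2 of LSM1 and 1 of LSM6, and how far their reads could be mixed with those of the genes was not tested.

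The genes spanned a wide range of levels in siCtrl. One transcript gives a read at 1 end, so levels were compared between genes without a correction for length. LSM5, a ring subunit common to both rings, stood highest at 565 RPM (95% interval 552 to 579), above 98.8% of genes with reads. SART3 had 259 RPM, LSM2 207, LSM3 121, LSM1 40.1 and LSM4 30.8, each apart from its neighbours beyond counting error. LSM7 at 12.2 RPM (10.2 to 14.4) and LSM8 at 9.98 RPM (8.23 to 12.0) were not told apart, and LSM6 was lowest at 4.03 RPM. The last subunit that makes a ring nuclear, LSM8, was thus read at a lower level than LSM1, its counterpart in the cytoplasmic ring.

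**Figure D1:**
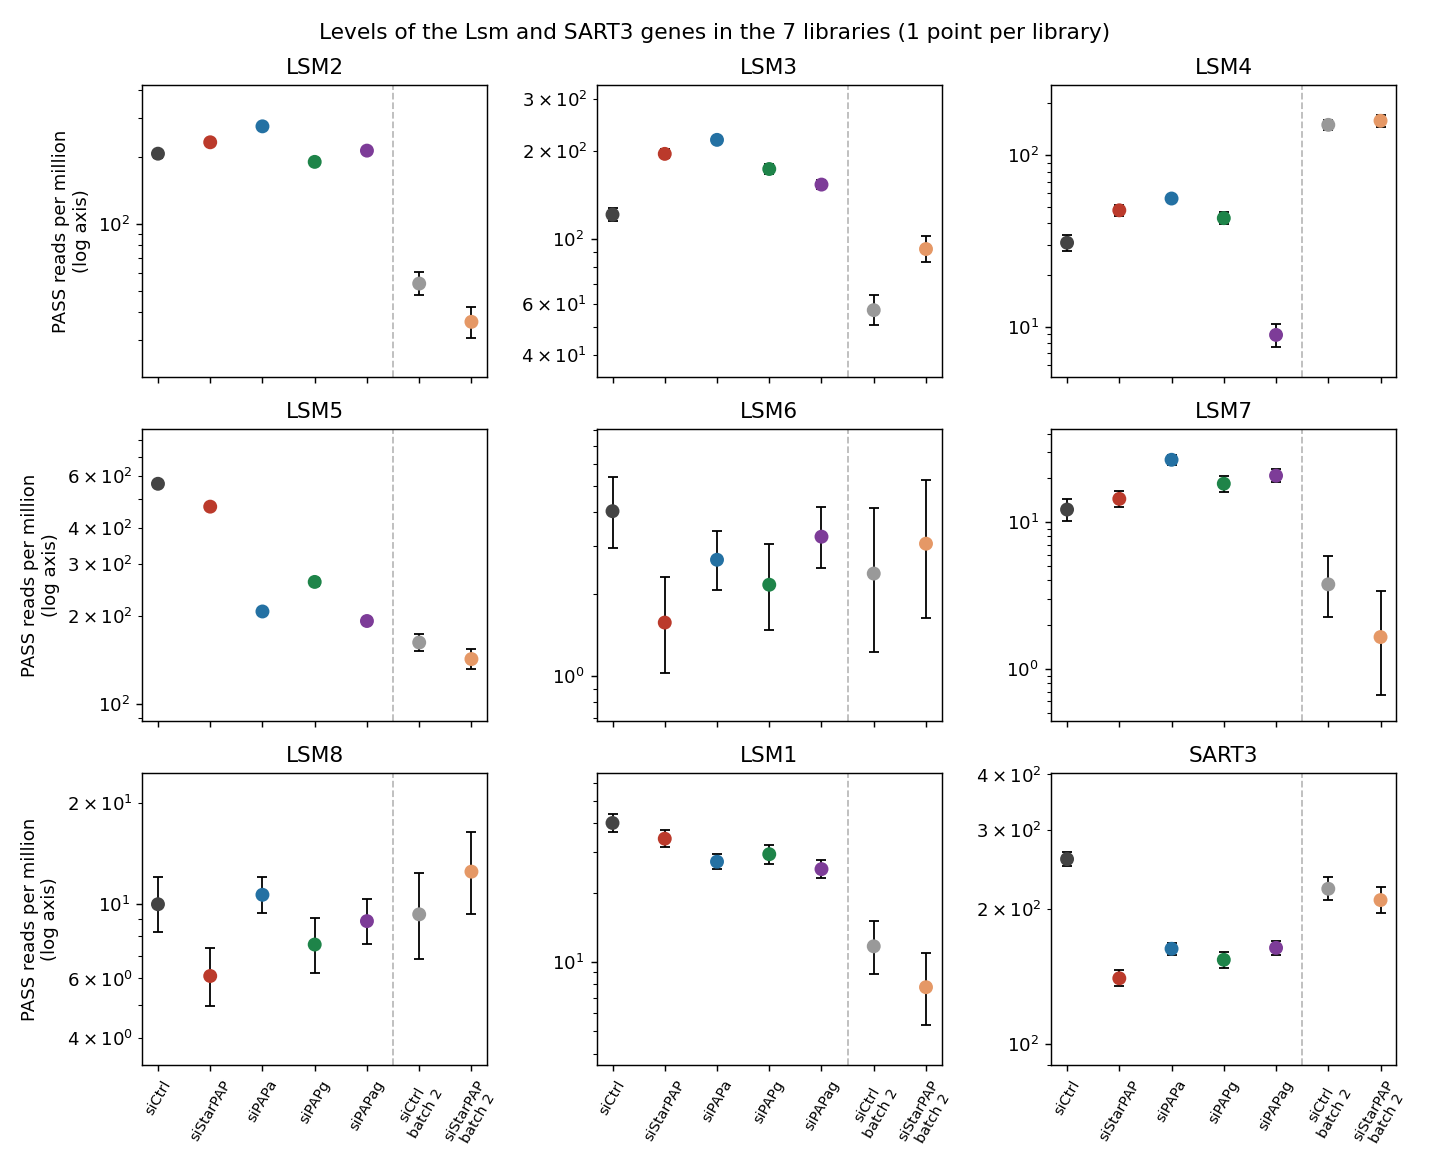
Level of each gene in RPM (y axis, log scale) in the 7 libraries (x axis), 1 point per library with its 95% Poisson interval, the dashed line dividing off batch 2. LSM5 had 565 RPM in siCtrl and 192 in siPAPag; the siPAPag and batch 2 points of LSM4 lack the downstream PAS.

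The order was partly different in siCtrl of batch 2. SART3 was highest there at 222 RPM, followed by LSM5 at 162 and LSM4 at 150, which were not told apart. LSM3 (57.04 RPM) and LSM2 (53.9 RPM) overlapped, as did LSM1 (11.7) and LSM8 (9.31), and LSM7 (3.76) and LSM6 (2.38). LSM4 was thus higher in batch 2 than in the first siCtrl by 2.28 on the log2 scale (95% interval 2.10 to 2.47), although only its upstream PAS was listed in batch 2, at position 18417726. LSM2 was lower by 1.94, LSM5 by 1.80, LSM1 by 1.78 and LSM7 by 1.69 on that scale. Over 9570 genes the median difference was −0.39, with 5% of genes below −3.65 and 5% above 3.25. The protocol and the batch cannot be told apart, and levels were not compared further between batches.

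Does loss of Star-PAP change the mRNAs of U6 partners? This question was asked with the 4 libraries of siStarPAP and siCtrl in both batches, the only conditions with a second library. By edgeR (quasi-likelihood test, batch as a block, 1 residual degree of freedom, adjusted p below 0.05), none of the 9 genes was called, while 1.08% of 11614 genes were lower and 1.21% higher. At an unadjusted p below 0.05 there was 1 of the 9, LSM3, beside 1754 of the 11614 genes. DESeq2 called 1, also LSM3, beside 88 genes lower and 191 higher. The median log2 change of the 9 genes was 0.15 and that of all genes −0.01, and 6 of 9 had a value above 0.

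LSM3, a subunit common to both rings, had the largest fitted value of the 9, which did not pass the edgeR threshold. Its reads numbered 1382 in siCtrl and 3227 in siStarPAP, or 121 and 195 RPM, and 288 and 392 in batch 2, or 57.04 and 92.2 RPM. Both siStarPAP libraries thus lay above their own siCtrl, and neither pair of intervals overlapped. The log2 RPM ratio was 0.69 (95% counting interval 0.60 to 0.78) in the first batch and 0.69 (0.47 to 0.92) in batch 2. In the fit the log2 change was 1.05 ± 0.33 (SE), with an adjusted p of 0.111 by edgeR and 0.0313 by DESeq2. Other edgeR settings that kept the block gave adjusted p between 0.0640 and 0.104, and without the block it was 1.00.

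LSM4, likewise in both rings, had 352 and 788 reads in the first table (30.8 and 47.6 RPM), and 757 and 673 in batch 2 (150 and 158 RPM). The first batch held the difference, and the intervals of batch 2 overlapped. Its fitted log2 change was 0.70 ± 0.34, with an edgeR adjusted p of 0.334, and 0.61 (adjusted p = 0.392) over PASs listed in both tables, a setting chosen after the data were seen. From 1 batch alone the value was 1.10 in the first and 0.26 in batch 2.

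LSM2 was the clearest case of batches that went different ways. It had 2365 reads in siCtrl and 3855 in siStarPAP (207 and 233 RPM), but 272 and 154 in batch 2 (53.9 and 36.2 RPM), with intervals apart in both batches. The siStarPAP level was thus the higher one in the first batch and the lower one in batch 2. LSM7 had 139 and 238 reads in the first batch (12.2 and 14.4 RPM), and only 19 and 7 in batch 2 (3.76 and 1.65 RPM). The fit gave 0.17 ± 0.35 for LSM2 and 0.15 ± 0.52 for LSM7, with edgeR adjusted p of 0.872 and 0.932.

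LSM5 and LSM6, the remaining subunits common to both rings, lay near 0 in the fit. LSM5 had 565 and 472 RPM in the first batch and 162 and 143 RPM in batch 2, on 606 to 7817 reads, and a fitted log2 change of 0.13 ± 0.33. LSM6 had 46 and 26 reads in the first batch and 12 and 13 in batch 2, and a change of −0.21 ± 0.82. Its few reads leave a change of any direction within 1 SE.

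LSM8, the nuclear subunit, had 114 reads in siCtrl and 101 in siStarPAP (9.98 and 6.10 RPM), and 47 and 53 in batch 2 (9.31 and 12.5 RPM). By RPM its level was thus lower in the first siStarPAP library (log2 ratio −0.71), whereas the intervals overlapped in batch 2. Relative to the median ratio of all genes, the first-batch value was −0.26 (−0.66 to 0.14). With TMM factors it was −0.23, so the lower level rests on the scale. The fitted change of LSM8 was 0.19 ± 0.44 (edgeR adjusted p = 0.892). LSM1, the cytoplasmic subunit, had 458 and 567 reads (40.1 and 34.3 RPM), and 59 and 33 in batch 2 (11.7 and 7.77 RPM). Its fitted change was −0.01 ± 0.37 (edgeR adjusted p = 0.995), with 0.25 from the first batch alone and −0.41 from batch 2. By RPM LSM1 was lower in siStarPAP of the first batch (−0.23) but higher with TMM factors (0.25), and the same held for LSM5 (−0.26 and 0.22).

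SART3 had 2958 reads in siCtrl and 2321 in siStarPAP, or 259 and 140 RPM. In batch 2 it had 1122 and 891 reads, or 222 and 210 RPM, with overlapping intervals. Its RPM in siStarPAP was 54.2% of siCtrl in the first batch, a log2 ratio of −0.88 (−0.96 to −0.81). Relative to the median ratio of all genes that value was −0.44 (−0.52 to −0.36), at percentile 30.8, and with TMM factors −0.41. The size of the first-batch difference thus rests in part on the scale. In batch 2 the RPM was 94.3% of siCtrl, where the ratio of −0.08 turned to 0.09 with TMM factors. The fit gave −0.13 ± 0.33, with an edgeR adjusted p of 0.896.

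**Figure D2:**
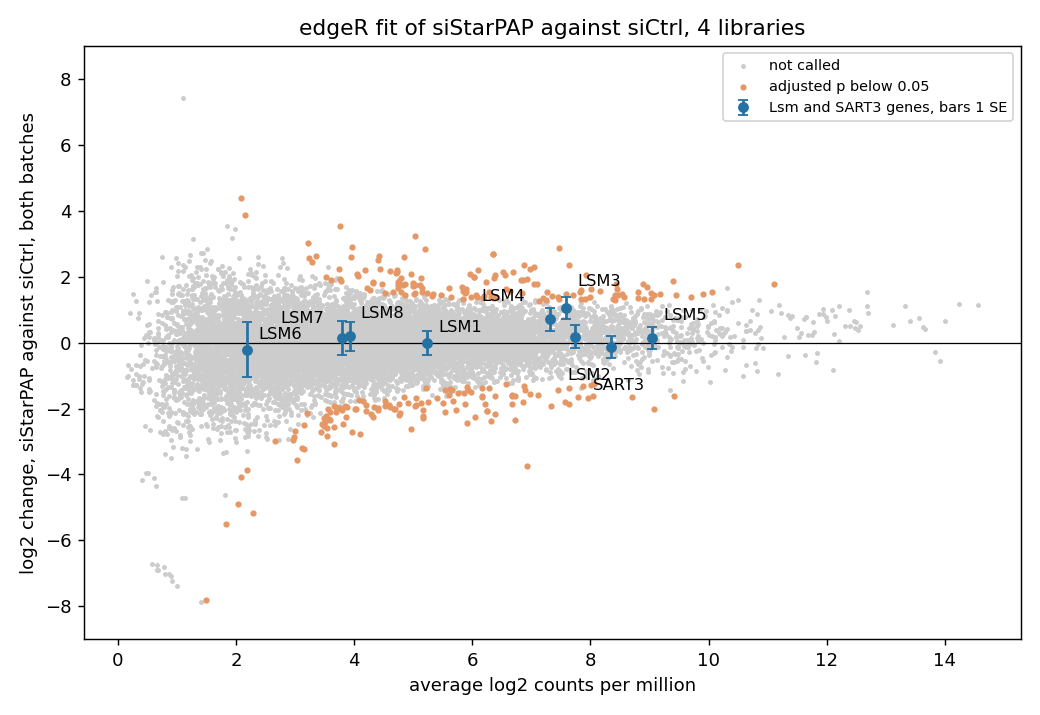
Log2 change of siStarPAP against siCtrl over both batches (y axis) against the average log2 CPM (edgeR's scaled counts, x axis), 1 point per gene, for 11614 genes, with genes called by edgeR in orange and the 9 named genes in blue with bars of 1 SE. LSM3 at 1.05 and LSM4 at 0.70 were the highest of the 9, and none of the 9 was called.

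Canonical PAP KDs were then set against siCtrl. Each had 1 library and all share the siCtrl library of the first batch, so the values have no replicate check, no test was run, and likeness between them was not counted. A gene was called past 2-fold among genes with more than 50 reads in the pair. The median log2 RPM ratio of all genes tested was −0.45 in siStarPAP, −0.26 in siPAPa, −0.33 in siPAPg, −0.38 in siPAPag and −0.16 in siStarPAP of batch 2, so ratios are given also relative to it. That shift was near 0 with TMM factors (0.01 to 0.08). The 9 genes had medians of −0.23, 0.09, −0.40, −0.31 and −0.08 in the same order (7 genes in batch 2).

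In siStarPAP, 1 of 9 genes (LSM6) was more than 2-fold lower, beside 26.2% of all genes tested, and 0 were higher, beside 4.44%. In siPAPa, 1 of 9 (LSM5) was lower, beside 22.1%, and 1 (LSM7) higher, beside 8.5%. In siPAPg, 1 of 9 (LSM5) was lower, beside 20.7%, and 0 higher, beside 5.67%. In siPAPag, 1 of 9 (LSM5) was lower, beside 26.5%, and 0 higher, beside 6.98%. In batch 2, none of the 7 genes with enough reads was lower, beside 11.7%, or higher, beside 3.55%. With 9 genes, these counts and the shares of all genes were not tested against each other. The LSM6 value, −1.36 (−2.11 to −0.63) on 26 and 46 reads, was −0.88 with TMM factors and then no longer past 2-fold.

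**Figure D3:**
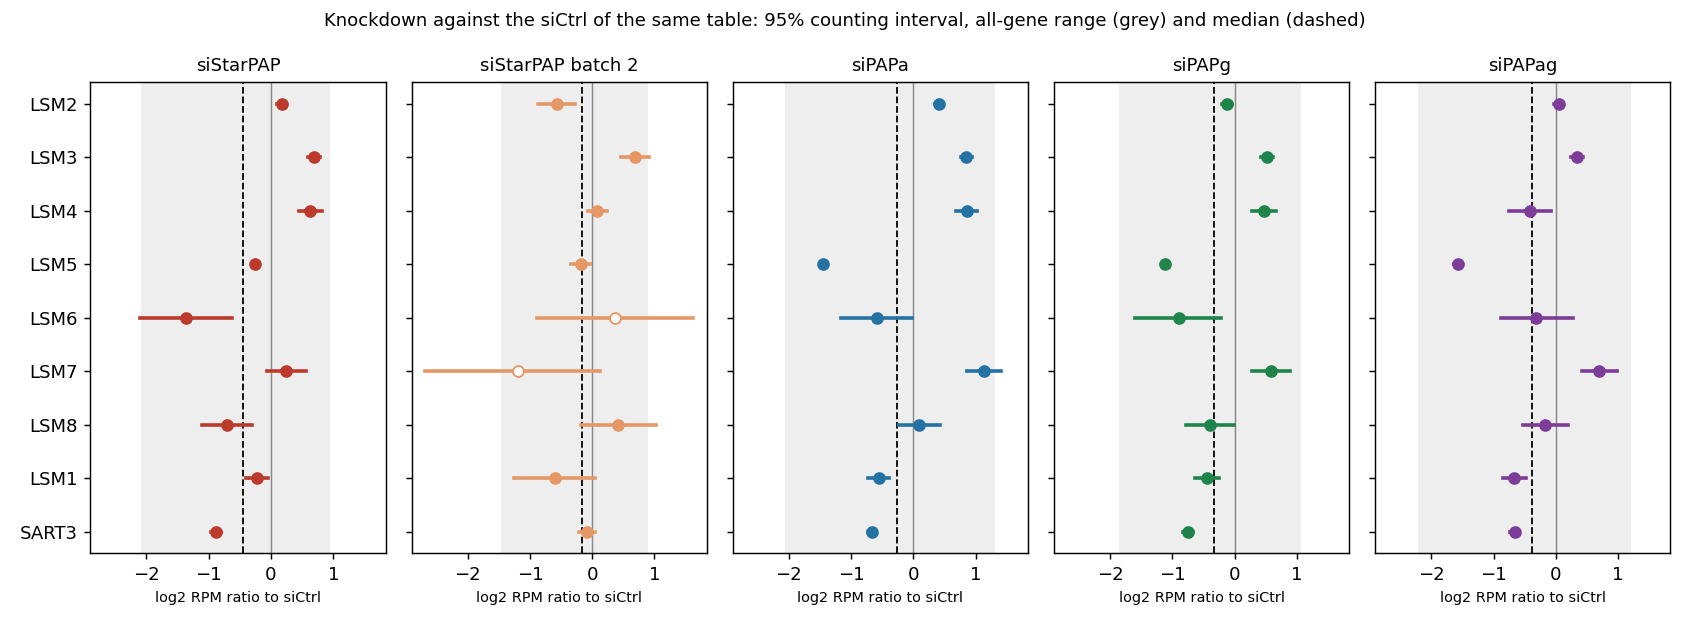
Log2 RPM ratio of each KD library to the siCtrl of its table (x axis) for the 9 genes (y axis), with 95% counting intervals, open points for pairs with 50 reads or fewer, the range from the 5th to the 95th percentile of all genes tested in grey and their median as a dashed line. LSM5 lay at −1.45, −1.11 and −1.57 in siPAPa, siPAPg and siPAPag, and at −0.26 in siStarPAP.

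LSM5 had the lowest ratios among the ring genes in canonical PAP KDs. It had 565 RPM in siCtrl, 207 in siPAPa, 261 in siPAPg and 192 in siPAPag, on 3614 to 6527 reads. These are 36.7% and 46.2% of siCtrl, and 33.7% in siPAPag, whose table lists more PASs and so gives siCtrl 571 RPM, beside 83.5% in siStarPAP. Relative to the median gene the log2 ratios were −1.19, −0.78 and −1.19 in the canonical KDs and 0.19 in siStarPAP, where the RPM ratio itself was −0.26. These ratios stood at percentiles 12.0, 17.5 and 12.7 of all genes. The call in siPAPg was lost with table totals or TMM factors as the scale (−0.73 with TMM).

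LSM7 had the highest ratio of the 9 genes in siPAPa. Its reads numbered 139 in siCtrl, 666 in siPAPa and 270 in siPAPg, and 146 and 389 in the table of siPAPag. On the RPM scale these were 12.2, 26.5 and 18.2, and 12.8 against 20.7, with the siCtrl interval below those of the KD libraries. The log2 ratios were 1.13 (0.86 to 1.40), 0.59 (0.28 to 0.89) and 0.70 (0.42 to 0.98), or 1.38, 0.91 and 1.08 relative to the median gene.

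LSM3 and LSM2, of both rings, were higher in siPAPa too. LSM3 went from 121 RPM in siCtrl to 218 in siPAPa, 173 in siPAPg and 153 in siPAPag, with log2 ratios of 0.85, 0.52 and 0.34. LSM2 had 207 RPM in siCtrl and 275, 190 and 214 RPM in the same KDs. The LSM2 ratio was above 0 in siPAPa (0.41), below 0 in siPAPg (−0.12) and not told apart from 0 in siPAPag (−0.03 to 0.12). With TMM factors the siPAPg value turned to 0.26, so its direction rests on the scale.

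LSM4 went from 30.8 RPM in siCtrl to 55.8 in siPAPa and 42.9 in siPAPg, with log2 ratios of 0.86 and 0.48. In the table of siPAPag only its upstream PAS was listed, with 136 reads in siCtrl and 168 in siPAPag and a log2 ratio of −0.41 (−0.75 to −0.08), or 0.02 with TMM factors. Taken alone, that upstream PAS had log2 ratios of 0.76 in siPAPa and −0.07 in siPAPg. LSM6 had 46 reads in siCtrl and 67, 32 and 61 in siPAPa, siPAPg and siPAPag. Its log2 ratios were −0.59 (−1.15 to −0.02), −0.90 (−1.59 to −0.21) and −0.31 (−0.89 to 0.27), the last of which turned to 0.12 with TMM factors.

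LSM8 and LSM1, each particular to 1 ring, and SART3 follow. LSM8 stood at 9.98 RPM in siCtrl, 10.6 in siPAPa, 7.57 in siPAPg and 8.89 in siPAPag. Its log2 RPM ratio was 0.09 (−0.23 to 0.42) in siPAPa, −0.40 (−0.79 to −0.01) in siPAPg and −0.17 (−0.52 to 0.19) in siPAPag. Relative to the median gene it was 0.35 (0.03 to 0.68), −0.07 (−0.46 to 0.32) and 0.22 (−0.14 to 0.57), and with TMM factors 0.43, −0.02 and 0.26. Whether LSM8 was lower in siPAPg or higher in siPAPa thus rests on the scale. LSM1 stood at 40.1 RPM in siCtrl, and at 27.2, 29.3 and 25.3 in the canonical KDs, at −0.30, −0.12 and −0.28 relative to the median gene. SART3 stood at 259 RPM in siCtrl and at 163, 154 and 164, with log2 ratios of −0.67, −0.75 and −0.66, or −0.41, −0.42 and −0.28 relative to the median gene. SART3 was thus lower than siCtrl in each of these libraries, at percentiles 30.3 to 38.2 of all genes.

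PAS use was measured as the share of a gene's reads at its most used PAS, in genes with at least 2 PASs and 50 reads in each library. Among those of the 9 genes that met this minimum, LSM4 and LSM8 alone moved by 10 points or more. They did so only in siPAPg, where 2 of 3 genes tested moved, beside 40.1% of all genes. In siStarPAP 0 of 3 did, beside 42.8%, in siPAPa 0 of 3, beside 46.7%, in siPAPag 0 of 5, beside 42.6%, and in batch 2 0 of 3, beside 23.7%. Over both batches, edgeR's diffSpliceDGE called 0% of 3691 genes (261 at an unadjusted p below 0.05). LSM8 and SART3, the members it could test, had adjusted p of 0.948 and 0.819.

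LSM4 ended at an upstream PAS and at one 673 nt further downstream, the annotated end of the gene. The downstream PAS took 61.4% of 352 reads in siCtrl (56.1 to 66.5%, Clopper-Pearson), 64.7% of 788 in siStarPAP, 63.9% of 1399 in siPAPa and 73.5% of 634 in siPAPg (69.9 to 76.9%). The siPAPg library thus stood apart from the other 3, by 12.1 points from siCtrl. Reads of the downstream PAS went from 216 to 466 between siCtrl and siPAPg, and those of the upstream PAS from 136 to 168.

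SART3 ended almost always at its upstream PAS, which has ATTAAA, and rarely 108 nt downstream, at a PAS with AATAGA. The downstream share was 4.97% in siCtrl (4.21 to 5.82%), 5.30% in siPAPg, 3.02% in siStarPAP, 2.86% in siPAPa and 2.30% in siPAPag (1.80 to 2.90%). In batch 2 it was 0.802% of 1122 reads in siCtrl and 0.449% of 891 in siStarPAP, with overlapping intervals. siCtrl and siPAPg were thus alike within counting error, and the other 3 libraries of the first protocol lay below them. The distances from siCtrl were 1.95 points in siStarPAP, 2.11 in siPAPa and 2.67 in siPAPag. These were small moves, at percentiles 14.3, 14.1 and 24.1 of the size of move over all genes tested.

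LSM8 had 12 last-exon PASs in the first table, spread over 11943 nt, and 1 intronic PAS. The most used one, 2250 nt past the first, took 29.8% of 114 reads in siCtrl (21.6 to 39.1%), 24.8% in siStarPAP, 29.6% in siPAPa, 27.5% in siPAPag and 14.3% of 112 reads in siPAPg (8.39 to 22.2%). In siPAPg the PASs 1777 and 730 nt past the first (18.8% and 16.96%) and the first itself (15.2%) had more reads than that one. Their intervals overlapped with its interval, so the order was not resolved. The siPAPg interval of the most used PAS also overlapped that of siCtrl, by a small margin. In batch 2 the far PAS took 40.4% of 47 reads in siCtrl (26.4 to 55.7%), but 3.77% of 53 in siStarPAP. The PAS 86 nt past the first took 4.26% there in siCtrl and 32.1% in siStarPAP (19.9 to 46.3%), on 2 and 17 reads. The 47 reads of siCtrl in batch 2 are below the minimum of 50. In the first batch the far PAS took 4.39% in siCtrl and 7.92% in siStarPAP. The PAS at 86 nt took 7.02% and 5.94% there, and intervals overlapped for both PASs.

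**Figure D4:**
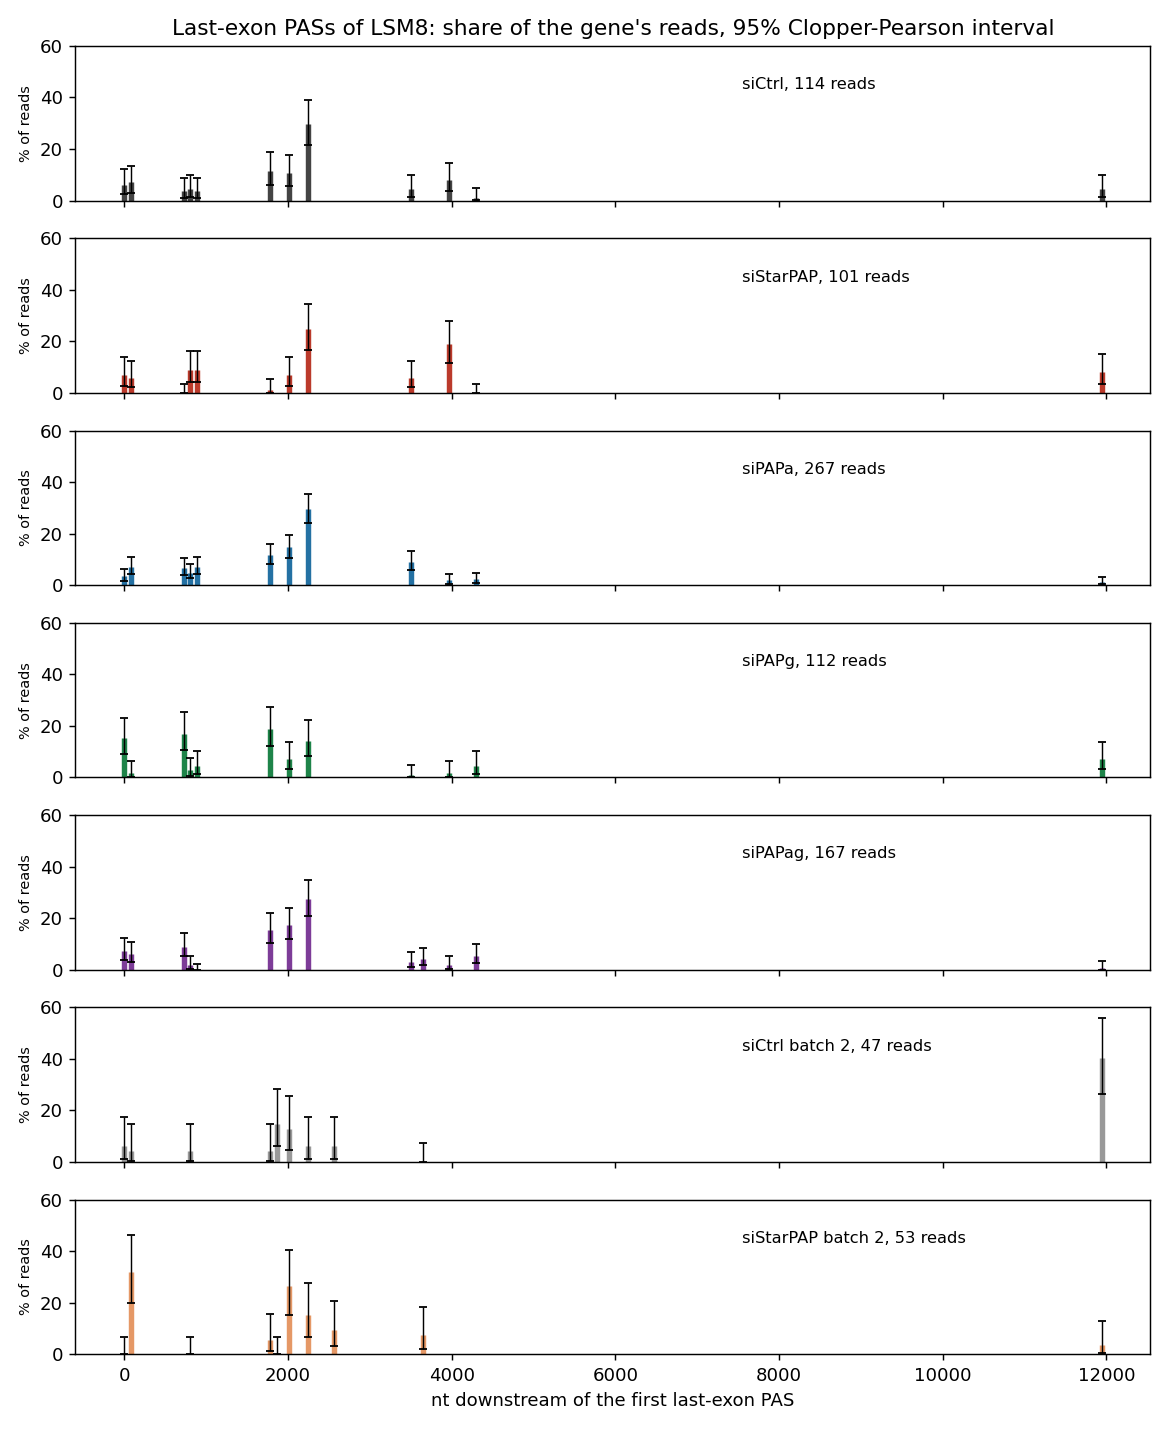
Share of LSM8 reads (y axis, percent) at each last-exon PAS by its distance from the first (x axis, nt), 1 panel per library, with 95% Clopper-Pearson intervals. The PAS at 2250 nt led in 4 of the 5 libraries of the first protocol, and that at 11943 nt in siCtrl of batch 2 (40.4%).

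LSM5 read through to downstream PASs in a small share of reads where the tables listed them. Its far PAS took 0.873% of 6527 reads in siCtrl (0.662 to 1.13%) and 4.07% of 3614 in siPAPag (3.45 to 4.76%), with 57 and 147 reads. In batch 2 it took 4.39% in siCtrl and 4.62% in siStarPAP. The PAS 809 nt past the first had 3 and 28 reads there, but 10 in siCtrl and 0 in siPAPag in the other table. LSM7 had an intronic PAS that took 4.79% of 146 reads in siCtrl and 2.83% of 389 in siPAPag, but 11 of 19 and 4 of 7 reads in batch 2. LSM3 was read at a PAS 74 nt downstream in at most 3.06% of its reads, and LSM2 had a single PAS in all tables. LSM6, below the minimum of 50 reads, had 95.7% of 46 reads at its most used PAS in siCtrl (85.2 to 99.5%), 69.2% of 26 in siStarPAP (48.2 to 85.7%) and 78.1% of 32 in siPAPg (60.03 to 90.7%), with intervals that overlap that of siCtrl.

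Other genes of U6 and of mRNA decay were read from lists set by function. Of 22 factors of U6 maturation and the tri-snRNP, 21 could be tested by edgeR in siStarPAP over both batches, and 0 were called (3 at an unadjusted p below 0.05), with a median log2 change of 0.12 and 16 above 0. Over all 11614 genes 1754 were at such a p and 5774 above 0, and the 3 include the siRNA's own target, TUT1. The lowest was TUT1 itself, at −2.91 ± 1.29, and the highest was CD2BP2, a protein of the U5 snRNP, at 0.93 ± 0.37 (edgeR adjusted p = 0.220). Of 12 decay partners of the LSM1 ring, 10 were tested, 0 were called (2 at an unadjusted p below 0.05) and the median was 0.11. They ranged from LSM14B, a protein of mRNA granules, at −0.62 ± 0.41 to EDC3, an enhancer of decapping, at 1.16 ± 0.45 (edgeR adjusted p = 0.206). EDC3 had 110 reads in siCtrl, 285 in siStarPAP, 701 in siPAPa, 313 in siPAPg and 480 in siPAPag, with log2 RPM ratios of 0.84, 1.54, 1.14 and 1.33. Of 11 other Sm-fold genes, 9 were tested, 0 were called (1 at an unadjusted p below 0.05) and the median was 0.37, from LSM11, a subunit of the U7 ring, at −0.27 ± 0.50 to SNRPD2, an Sm protein, at 0.78 ± 0.34.

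In single libraries, 3 of 20 U6 and tri-snRNP genes were more than 2-fold lower in siStarPAP, 4 of 21 in siPAPa, 4 of 21 in siPAPg and 5 of 21 in siPAPag, and 0 were higher. The 3 in siStarPAP include TUT1, with 2 reads against 83. Beside these stand, for all genes tested, 26.2%, 22.1%, 20.7% and 26.5% lower and 4.44%, 8.5%, 5.67% and 6.98% higher in the same order, and nothing is read from the lists' counts. Among decay partners 3 of 9 were lower in siStarPAP, 1 of 10 in siPAPa, 1 of 9 in siPAPg and 4 of 9 in siPAPag, with 0, 2, 2 and 3 higher. Other Sm-fold genes had 0 of 9, 2 of 9, 1 of 9 and 2 of 8 lower and 0 higher. In batch 2, with 16, 7 and 7 genes tested, 0 were lower and 1 decay partner was higher, beside 11.7% lower and 3.55% higher of all genes tested.

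The genes with ratios most like those of LSM1, LSM8 and SART3 over the 5 KD libraries were found among genes with at least 50 reads in every library. Likeness was the root mean square difference of the log2 RPM ratios. For LSM1 these were NSUN2 (0.07), YARS (0.10) and SNX19 (0.11), of 3765 genes. For LSM8 they were TXNDC5 (0.08), ZNF511 (0.11) and KCTD3 (0.11). For SART3 they were SFT2D3 (0.09), PTPLA (0.09) and KDM5C (0.10), of 3764 genes. LSM1 and LSM8 themselves fell below that minimum in batch 2, with 33 reads in siStarPAP for LSM1 and 47 in siCtrl for LSM8. Counting intervals of their batch 2 ratios were −1.25 to 0.05 and −0.17 to 1.02, wider than the differences listed. The order of their neighbours is therefore not resolved by these reads. Of the 5 ratios 4 share a siCtrl library, so this likeness is a description of these libraries.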

How the data were processed

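The authors sequenced 3′ ends of HEK293 RNA (3′READS, or 3′READS+ in batch 2), mapped reads to hg19 with Bowtie2, kept PASS reads, clustered PASs and deposited read counts per PAS of RefSeq genes. These deposited counts are raw. Genes and lists were chosen with earlier results of these data known. Sense-strand counts were summed per gene. RPM used the PASS read totals of the study's mapping statistics. The tests were edgeR 4.0.16 (filterByExpr, TMM, batch as a block, Benjamini-Hochberg) in R 4.3.3, and diffSpliceDGE on PASs joined within 24 nt. DESeq2 1.42.0 was an alternative. Ratio intervals came from the exact binomial split of reads (Python 3.11.15, scipy 1.17.1). The labels mark only the siCtrl and siStarPAP libraries of batch 2 with a batch. The other libraries carry no batch label, so the batch of siPAPag is not known. The siCtrl and siStarPAP libraries of a batch deviated together from their group means (r = 0.882 over 11614 genes). In simulated data for siStarPAP against siCtrl, edgeR recovered 106 of 200 genes changed 4-fold (5 false calls of 11614), DESeq2 82 (3 false) and diffSpliceDGE 129 of 200 (4 false of 3848). Recovery of smaller gene changes, such as the log2 change of 1.05 fitted for LSM3, was not simulated. The PAS simulation used a set spread between libraries in place of the observed one, and changed only PASs with many reads. Its recovery therefore does not measure that of the PAS-use test on these data. No label says that libraries came from separate cultures, so p-values measure only the spread between these libraries. Genes named were all 9, TUT1, PAPOLA and PAPOLG, the extremes and calls of each list, and the nearest patterns of LSM1, LSM8 and SART3. Other settings were scaling, filters, fold, PAS merging and libraries left out.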

Additional observations from a re-analysis of the deposited data

Results flagged for a closer look

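LSM2 lay above siCtrl in siStarPAP of the first batch and below it in batch 2, each by more than counting error. Its log2 RPM ratio to siCtrl was 0.17 (95% counting interval 0.10 to 0.24) in the first batch and −0.57 (−0.87 to −0.28) in batch 2. Scaled by TMM factors, the values were 0.65 and −0.39. The difference between the batches was not tested, since each batch holds 1 library per condition.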

How the results depend on the processing

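With 1 residual degree of freedom, the calls of the replicated fit rest on the batch block. With no replicate block, edgeR called 0 genes lower and 0 higher (62 at an unadjusted p below 0.05), and the same 0 and 0 came with each of the 4 libraries left out (141 to 572 at an unadjusted p below 0.05). Without the filter on low counts it called 249 lower and 224 higher. DESeq2 called 1 of the 9 genes in place of 0. LSM3 kept its direction throughout, from 0.41 to 1.60 with a library left out. The ranges of that kind were −1.36 to 1.13 for LSM1, −1.46 to 1.61 for LSM2, −0.66 to 2.22 for LSM4, −0.97 to 1.20 for LSM5, −0.65 to 0.27 for LSM6, −1.90 to 1.40 for LSM7, −0.31 to 0.69 for LSM8 and −0.42 to 0.13 for SART3. Beside these ends, signs also turned to 0.82 for LSM1 without siStarPAP replicate 2, to −0.10 for LSM2, −0.36 for LSM5 and −0.061 for LSM7 without siCtrl replicate 2, and to −0.33 for LSM4 and 0.17 for LSM6 without siCtrl replicate 1. By construction these fits carry the batch difference. LSM1, near 0, changed sign to 0.14 with no replicate block, to 0.017 with RLE factors and to 0.0070 with DESeq2. With the block kept, 39 values of these genes kept their direction and side of the threshold, and 3 under DESeq2 (LSM6, LSM7 and LSM8) kept their direction but had no adjusted p. The block changed no call on these 9 genes.

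Scaling moved the single-library counts of LSM1 to LSM8 and SART3. With TMM factors, siStarPAP had 0 of these genes past 2-fold lower and 2 higher, siPAPa 3 higher, siPAPg 0 lower and siPAPag 1 higher. With table totals siPAPg had 0 lower. Past 1.5-fold, the lower and higher counts were 3 and 2 in siStarPAP, 3 and 3 in siPAPa, 3 and 1 in siPAPg, 3 and 1 in siPAPag, and 1 and 1 in batch 2. Without a filter, batch 2 had 1 lower. Shares of all genes at these settings are not given here, so nothing is read from these counts. For PAS use, a change of 5 points gave 1 of 3 genes (LSM8) in siStarPAP, beside 3505 of 5270 genes. A minimum of 20 reads gave 1 of 4 (LSM6) in siStarPAP, beside 3631 of 7324, 3 of 4 (LSM4, LSM6 and LSM8) in siPAPg, beside 3429 of 7441, and 1 of 5 (LSM8) in batch 2, beside 1740 of 5025. The cause was not tested.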
